A study of Rattus norvegicus with 9 samples.

Results

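The insulin-like growth factor (IGF) system was examined in cultured adipose-derived stem cells (ASCs) of the rat through 10 genes, which were picked by name from the 35362 genes of the count table. They are the ligands Igf1 and Igf2, the receptors Igf1r and Igf2r, and the binding proteins Igfbp2, Igfbp3, Igfbp4, Igfbp5, Igfbp6, and Igfbp7. All 10 were found and all passed the filter on low counts, which 14770 genes passed. SASCs came from the subcutaneous fat of the groin, PASCs from the perirenal fat around the kidney, and EASCs from the epididymal fat beside the testis. All donors were male Sprague Dawley rats aged 6 weeks that were fasted before the fat was taken, no genotype or drug distinguishes the groups, and every group was grown in serum-containing high glucose medium and harvested at passage 3. The methods describe 6 replicate wells in each group, while the labels list 3 samples in each. How the cells of the 6 rats were shared among the wells is not stated, so the p-values measure only the spread between these samples, which may be technical.

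IGF1 and IGF2 are secreted peptides that promote growth and survival. Both activate the IGF1 receptor, a tyrosine kinase that signals through the insulin receptor substrates, PI3 kinase, and AKT, while the IGF2 receptor (the cation-independent mannose-6-phosphate receptor) takes IGF2 into the cell for degradation and carries enzymes to lysosomes. The binding proteins hold IGFs outside the cell and either block or prolong their action, and proteases such as pappalysin release the ligand from them. In fat, IGF signaling is known to promote both the division of preadipocytes and their differentiation. Growth hormone is a main inducer of Igf1.

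Levels are given as CPM, the counts of a gene scaled to a common library size by edgeR's TMM method. The largest differences from SASCs were those of Igfbp5, Igf1, and Igfbp2. SASCs held 152 ± 7.10 CPM (SD, n = 3) of Igfbp5, while PASCs held 0.226 ± 0.134 and EASCs 0.882 ± 0.293. Igf1 stood at 313 ± 5.32 CPM in SASCs, 28.9 ± 1.91 in PASCs, and 27.8 ± 2.88 in EASCs. Igfbp2 went the other way at a low level, with 0.0745 ± 0.0623 CPM in SASCs but 1.34 ± 0.382 in PASCs and 1.19 ± 0.0829 in EASCs. Both receptors stayed within a fold change of 2 in every comparison.

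Igfbp2 and Igfbp5 are neighbours on chromosome 9 of the table's annotation, with their 3′ ends facing each other. The 250 bases in front of the RefSeq start of the 4 genes past the DEG thresholds in both comparisons with SASCs (more than a 2-fold change at an adjusted p under 0.05) are printed here, from build GRCr8 and in the direction of the gene, to let the upstream sequence be read beside the levels. Capitals mark CpG dinucleotides. Igfbp5 lies at chr9:81914188-81914437 on the minus strand, Igfbp2 at chr9:81864561-81864810, Igf1 at chr7:24172282-24172531, and Igfbp4 at chr10:84491221-84491470, the latter 3 on the plus strand.
Igfbp5: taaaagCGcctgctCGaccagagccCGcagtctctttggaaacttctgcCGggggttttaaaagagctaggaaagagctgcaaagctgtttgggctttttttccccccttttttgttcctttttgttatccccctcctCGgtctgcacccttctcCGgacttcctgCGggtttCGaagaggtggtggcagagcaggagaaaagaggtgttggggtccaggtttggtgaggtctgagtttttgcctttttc
Igfbp2: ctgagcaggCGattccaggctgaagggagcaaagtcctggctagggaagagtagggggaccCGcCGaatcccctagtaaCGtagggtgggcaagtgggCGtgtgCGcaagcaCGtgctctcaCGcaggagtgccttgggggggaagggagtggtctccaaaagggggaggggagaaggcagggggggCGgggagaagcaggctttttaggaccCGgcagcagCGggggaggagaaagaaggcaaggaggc
Igf1: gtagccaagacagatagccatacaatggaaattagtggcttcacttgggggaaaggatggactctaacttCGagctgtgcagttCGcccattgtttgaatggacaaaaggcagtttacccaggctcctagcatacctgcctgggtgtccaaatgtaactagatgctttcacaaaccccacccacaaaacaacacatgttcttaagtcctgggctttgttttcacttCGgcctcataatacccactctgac
Igfbp4: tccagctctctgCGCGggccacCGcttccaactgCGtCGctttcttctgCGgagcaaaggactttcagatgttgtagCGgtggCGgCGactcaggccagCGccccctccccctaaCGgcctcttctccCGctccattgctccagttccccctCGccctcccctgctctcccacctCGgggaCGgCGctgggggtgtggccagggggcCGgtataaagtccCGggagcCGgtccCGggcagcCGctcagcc
The windows of Igfbp5 and Igf1 hold 8 and 3 CpGs at a GC content of 51.6% and 46.8%, near the median over 27457 RefSeq windows of the same length, which is 6 CpGs (quartiles 2 and 16) and 52.0%. Igfbp2 and Igfbp4 hold 11 and 21 CpGs. Among the other members, Igf1r, Igfbp3, Igfbp7, and Igf2r hold 45, 31, 26, and 23, Igf2 holds 15, and Igfbp6 holds 5.

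The letters of 5 motifs were searched on both strands of all 10 windows. A TATA box (TATAAA, in 13.1% of all windows) was matched in Igfbp4 at bases -40 to -35 from the start. The GC box GGGCGG, present in 32.4% of windows, was matched in Igf1r, Igf2r, Igfbp2, and Igfbp7. The E-box CACGTG, present in 5.79%, was matched in Igf1r, Igf2r, and Igfbp2. The FOXO motif TGTTTAC (3.25%) was matched in Igfbp6 on the minus strand, and CCAAT (34.3%) in none of the 10. No matches overlapped each other. The windows of Igfbp5 and Igf1 held none of these letters, which covers these 250 bases only.

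**Figure D1:**
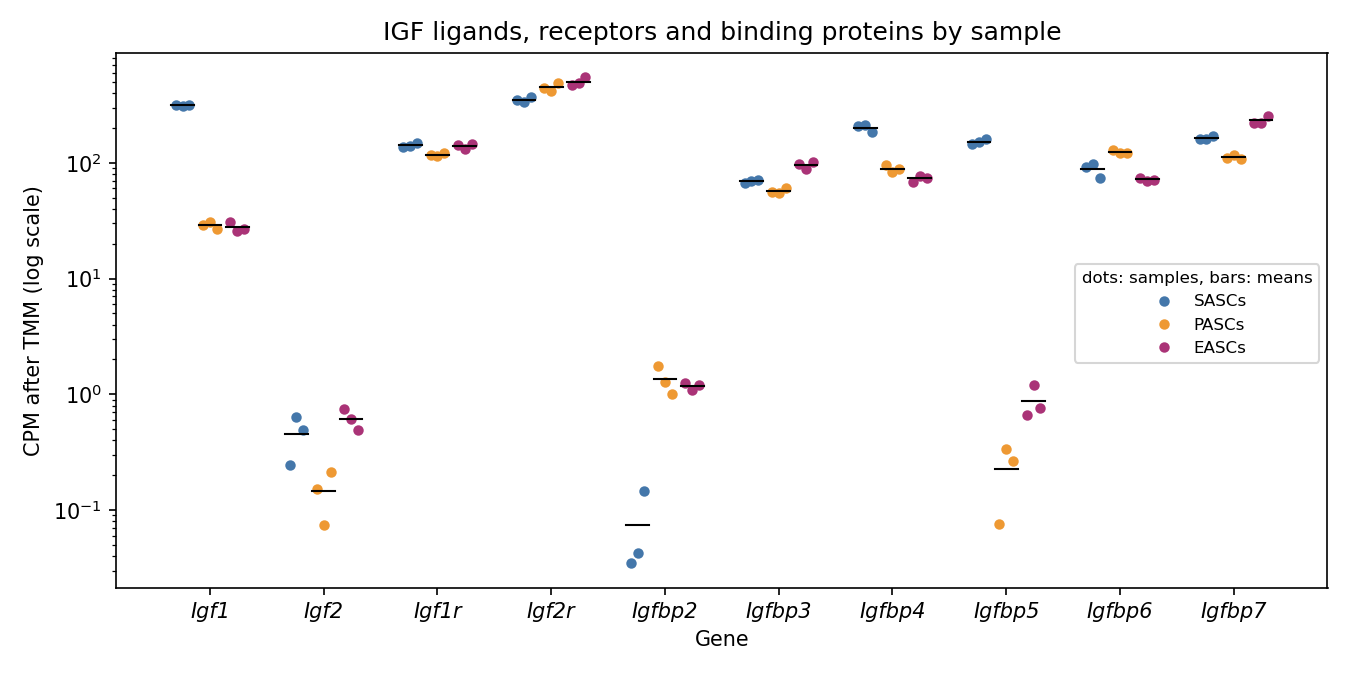
Level of the 10 genes in each of the 9 samples, in CPM after TMM normalization on a log axis, with dots for samples and bars for group means (3 samples per group). Igfbp5 and Igf1 stand above both visceral groups in all 3 SASC samples, and Igfbp2 stands below them. CPM are not corrected for transcript length, so heights compare samples within a gene and not genes with each other.

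Igfbp5, a binding protein that also attaches to the extracellular matrix, was counted 4163, 3597, and 3255 times in the SASC samples numbered 1 to 3. The PASC samples had 2, 9, and 5 counts, and the EASC samples 16, 30, and 17. The groups did not overlap, and the PASC samples lay near the limit of detection, since 3 counts in a library equal 0.104 to 0.159 CPM. Because this fall was known when the set of genes was drawn up, it is given as a description without a p-value. Relative to library size, SASCs held 170.3 times the pooled counts of EASCs (95% counting interval 133 to 222) and 679 times those of PASCs (418 to 1188). By fitted fold change it ranked 33rd from the bottom of 14770 genes in EASCs and 8th in PASCs. Between the visceral groups, EASCs held 3.99 times as many Igfbp5 counts as PASCs (2.27 to 7.39). No PASC sample reached the minimum of the low-count filter (10 counts in a library of median size), so Igfbp5 entered this test only through the groups where it was higher, and no p-value is given. In the annotation of the table Igfbp5 spans 80154230 to 80166813 on the minus strand of chromosome 9.

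Igfbp2, a binding protein made by liver and by white fat precursors, begins 48.8 kb from the start of Igfbp5 (80118029 to 80144804, plus strand), and 9.43 kb lie between the ends of the genes. The SASC samples had 1, 1, and 3 counts of Igfbp2, the PASC samples 46, 34, and 19, and the EASC samples 30, 27, and 27. Every visceral sample exceeded every SASC sample. Pooled counts relative to library size were 17.2 times higher in EASCs (7.11 to 54.5) and 20.1 times higher in PASCs (8.32 to 63.2), and the wide intervals follow from the 5 counts in SASCs. Of these, 3 lay in SASC replicate 3, and without that sample the ratios were 31.0 and 36.1. Igfbp2 passed the low-count filter only through the visceral samples, so its call against SASCs is no independent support, and it is given without a p-value. The visceral groups differed by -0.20 on the log2 scale, within a 95% interval of -0.94 to 0.55 (adjusted p = 0.736).

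Of the other genes within 500 kb of the Igfbp5 start, only Smarcal1 and the pseudogene Rpl37a-ps1 passed the filter. This neighbourhood was chosen after the values were seen. Smarcal1, a DNA annealing helicase, fell in EASCs by 0.45 on the log2 scale (adjusted p = 0.00184), and its value in PASCs was -0.25 (adjusted p = 0.0634). Rpl37a-ps1 rose by 0.22 and 0.25 (adjusted p = 0.00286 and 0.00125).

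Igf1, the main ligand of the system (chromosome 7, 28412123 to 28491815, plus strand), stood at 318, 308, and 313 CPM in the SASC samples. The PASC samples held 28.9, 30.8, and 26.9 CPM and the EASC samples 31.0, 25.5, and 26.9. The 3 SASC samples were tightly grouped and lay far above all 6 visceral samples. By edgeR's quasi-likelihood test with Benjamini-Hochberg adjustment, the log2 fold change against SASCs was -3.49 in EASCs (SE 0.0688, adjusted p = 3.65e-25) and -3.44 in PASCs (SE 0.0685, adjusted p = 6.38e-25), and both comparisons share the SASC samples. EASCs and PASCs differed by -0.06, with an interval of -0.20 to 0.09 (adjusted p = 0.601).

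Igf2, the fetal growth factor of an imprinted locus (chromosome 1, 215828102 to 215839081, minus strand), was barely detected. The SASC samples had 7, 15, and 10 counts, the PASC samples 4, 2, and 4, and the EASC samples 18, 15, and 11. Every PASC sample lay below every sample of the other groups, while SASCs and EASCs overlapped. Relative to library size, pooled counts were 3.15 times higher in SASCs than in PASCs (1.51 to 7.19) and 4.45 times higher in EASCs than in PASCs (2.21 to 9.92). No PASC sample reached the minimum of the low-count filter, so Igf2 entered these tests only through the groups where it was higher, and no p-value is given for them. Its call against SASCs was lost without either of PASC replicates 1 and 2 or SASC replicates 2 and 3, and when no filter was applied, with log2 fold changes between -1.70 and -1.30 in place of -1.63. That between EASCs and PASCs was lost without PASC replicate 2 (1.76 in place of 2.1). EASCs and SASCs differed by 0.47 on the log2 scale (SE 0.500, adjusted p = 0.414).

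Igf1r, the signaling receptor (chromosome 1, 128924921 to 129213816, plus strand), was present at similar levels in all depots. It stood at 136, 140.4, and 148 CPM in SASCs, at 117, 114, and 121 in PASCs, and at 142, 132, and 146 in EASCs. It fell in PASCs by 0.27 on the log2 scale (SE 0.0559, adjusted p = 1.47e-04), less than the DEG threshold, with no overlap of samples. In EASCs the difference from SASCs was -0.01, with an interval of -0.13 to 0.10 (adjusted p = 0.822). EASCs lay above PASCs by 0.25 (SE 0.0559, adjusted p = 9.05e-04), with no overlap of samples. That call was lost when counts were scaled by library totals without TMM.

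Igf2r (chromosome 1, 48176106 to 48264479, plus strand) was higher in every visceral sample than in any SASC sample. It stood at 346, 337, and 367 CPM in SASCs, at 441, 416, and 491 in PASCs, and at 472, 489, and 547 in EASCs. The log2 fold change was 0.52 in EASCs (SE 0.0645, adjusted p = 5.93e-08) and 0.36 in PASCs (SE 0.0645, adjusted p = 2.01e-05). Both calls were lost when counts were scaled by library totals without TMM, where the values were 0.12 (adjusted p = 0.539) and 0.04 (adjusted p = 0.840) and the median of all genes moved to -0.39 and -0.33. The visceral groups overlapped and differed by 0.16 (interval 0.03 to 0.29, adjusted p = 0.0566). This difference passed under 5 alternatives, among them the replicate number as a block (adjusted p = 0.0120).

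Igfbp4, an inhibitory binding protein cleaved by pappalysin (chromosome 10, 86950555 to 86962563, plus strand), stood at 207, 213, and 184 CPM in SASCs. The PASC samples held 95.1, 82.8, and 89.0 CPM and the EASC samples 68.7, 76.5, and 74.1. No visceral sample reached the SASC range, and EASCs were lowest. It was a downregulated DEG in EASCs (log2 fold change -1.46, SE 0.0646, adjusted p = 2.69e-17) and in PASCs (-1.18, SE 0.0639, adjusted p = 2.67e-15). EASCs differed from PASCs by -0.28 (SE 0.0652, adjusted p = 0.00128), a call that was lost with library totals in place of TMM.

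The remaining binding proteins changed by less than a factor of 2 against SASCs and separated the visceral depots from each other. Igfbp7, a secreted protein with low affinity for IGFs (chromosome 14, 33010300 to 33070193, plus strand), stood at 159.9, 159.6, and 169.9 CPM in SASCs, at 110.3, 118, and 108 in PASCs, and at 222, 221, and 254 in EASCs. The 3 groups did not overlap, with PASCs below and EASCs above SASCs. The log2 fold change was 0.51 in EASCs (SE 0.0588, adjusted p = 1.62e-08), -0.54 in PASCs (SE 0.0598, adjusted p = 7.60e-09), and 1.05 between EASCs and PASCs (SE 0.0598, adjusted p = 6.59e-14), which barely exceeds the DEG threshold. This last value lay under the fold threshold with library totals in place of TMM and without EASC replicate 3. Igfbp7 overlaps Polr2b and 2 uncharacterised loci (at most 308 counts in a sample) on the other strand, and the use of strand in counting is not given in the sources used here. Polr2b itself differed by 0.22, 0.14, and 0.09 in the same 3 comparisons. One of the loci, LOC103692786, differed by -0.77, -1.60, and 0.83, and its part in the counts of Igfbp7 was not tested.

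Igfbp3, the main carrier of IGFs in blood (chromosome 14, 87457647 to 87465374, minus strand), had the same order of depots as Igfbp7. It stood at 67.2, 69.3, and 70.8 CPM in SASCs, at 55.7, 54.7, and 60.9 in PASCs, and at 97.4, 88.6, and 101 in EASCs. The groups did not overlap. The log2 fold change was 0.47 in EASCs (SE 0.0615, adjusted p = 1.49e-07), -0.28 in PASCs (SE 0.0629, adjusted p = 3.57e-04), and 0.75 between EASCs and PASCs (SE 0.0623, adjusted p = 1.72e-10).

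Igfbp6, which binds IGF2 in preference to IGF1 (chromosome 7, 143749385 to 143754018, plus strand), was highest in PASCs. It stood at 92.1, 96.6, and 74.1 CPM in SASCs, at 129.8, 121, and 121 in PASCs, and at 74.4, 70.1, and 71.7 in EASCs. The PASC samples lay above all others, and SASC replicate 3 lay within the EASC range. The log2 fold change was 0.50 in PASCs (SE 0.0705, adjusted p = 5.74e-07), -0.28 in EASCs (SE 0.0718, adjusted p = 0.00103), and -0.78 between EASCs and PASCs (SE 0.0713, adjusted p = 1.03e-09). With library totals in place of TMM the calls of Igfbp3 and Igfbp7 in EASCs and of Igfbp6 in PASCs were lost, at 0.07, 0.11, and 0.17, where the median of all genes was -0.39 in EASCs and -0.33 in PASCs.

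**Figure D2:**
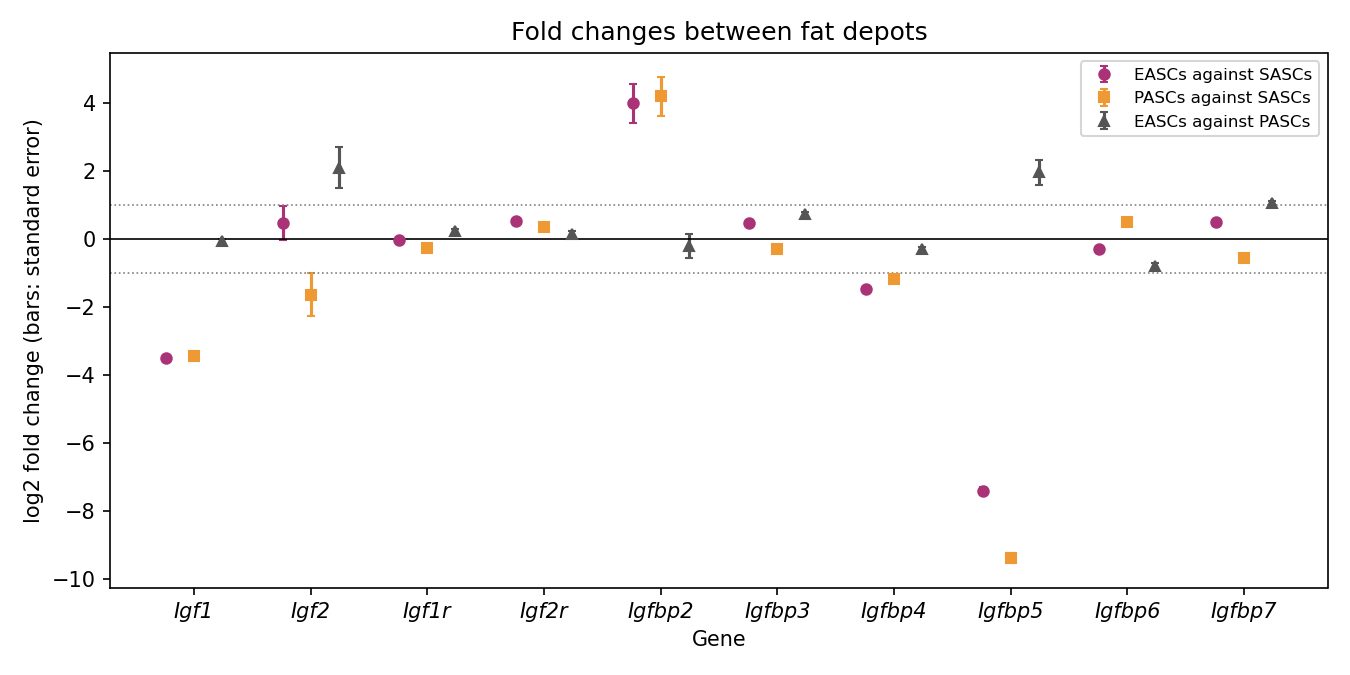
Log2 fold changes of the 10 genes from the edgeR fit of 9 samples, with bars for the standard error and dotted lines at a fold change of 2 (log2 of 1 and -1). Igfbp5 and Igf1 lie far below the lower line in both comparisons with SASCs and Igfbp2 lies above the upper one, while Igf1r and Igf2r lie between the lines.

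Counted over the set, 4 of the 10 genes were DEGs in EASCs against SASCs (Igfbp2 up, and Igf1, Igfbp4, and Igfbp5 down), beside 27.8% of all genes tested (13.5% up, 14.2% down). In PASCs against SASCs 5 were DEGs (the same 4 genes and Igf2, down), beside 26.9% (12.0% up, 14.9% down). Igfbp5, whose fall was known beforehand, is 1 of each count, and genes that entered a test only through the group where they were higher are others. In EASCs against PASCs 3 were DEGs, all upregulated (Igf2, Igfbp5, and Igfbp7), beside 7.39% (5.19% up, 2.20% down). Without Igfbp5 and the genes with no sample at the filter's minimum in a group compared, 2 of 8 were DEGs in EASCs against SASCs and 2 of 7 in PASCs against SASCs (Igf1 and Igfbp4 in each), and 1 of 8 in EASCs against PASCs (Igfbp7). These smaller counts were drawn up after the values were seen. At an adjusted p under 0.05 and any fold change, 8 genes passed in EASCs against SASCs (4 up, 4 down), beside 69.7% of all genes (35.5% up, 34.3% down). In PASCs against SASCs all 10 passed (3 up, 7 down), beside 69.2% (34.6% up, 34.6% down). In EASCs against PASCs 7 passed (5 up, 2 down), beside 30.7% (16.1% up, 14.5% down). These counts and the medians below again include Igfbp5 and the genes that entered a test only through the group where they were higher. They are a description of the set and no independent support. For the groups of samples described above as not overlapping, the background is that 72.1%, 71.6%, and 41.2% of all genes tested did not overlap in these 3 comparisons. The median log2 fold change of the 10 genes was 0.23, -0.41, and 0.21, against 0.01, -0.01, and -0.01 over all genes tested.

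Levels of different genes were compared as FPKM, that is CPM divided by the gene length of the table in kb. In SASCs Igfbp7 was highest at 148 ± 5.31 FPKM (SD, n = 3), followed by Igfbp6 (101 ± 13.7), Igfbp5 (93.4 ± 4.36), and Igfbp4 (93.1 ± 6.97). Igfbp7 lay above all samples of Igfbp6, while Igfbp5 overlapped both Igfbp6 and Igfbp4. Igf1 and Igf2r followed at 42.3 ± 0.718 and 39.8 ± 1.73 and also overlapped, then came Igfbp3 at 28.7 and Igf1r at 12.3. Igf2 and Igfbp2 came last, with means below 0.1 FPKM and overlapping samples. In PASCs the order was Igfbp6 (143), Igfbp7 (101), Igf2r (51.1), Igfbp4 (41.1), Igfbp3 (23.7), Igf1r (10.3), Igf1 (3.90), Igfbp2 (1.04), Igfbp5 (0.139), and Igf2 (0.0265). In EASCs it was Igfbp7 (210.2), Igfbp6 (82.9), Igf2r (57.2), Igfbp3 (39.8), Igfbp4 (33.8), Igf1r (12.2), Igf1 (3.76), Igfbp2 (0.915), Igfbp5 (0.542), and Igf2 (0.112). No neighbours overlapped in the visceral groups. Igf1 thus stood above its receptor per length in SASCs and below it in both visceral groups.

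Summed over Igfbp2 to Igfbp7, the binding proteins reached 464 ± 12.7 FPKM in SASCs, 310.0 ± 6.97 in PASCs, and 368 ± 19.4 in EASCs. In SASCs 4 genes shared most of this sum, with Igfbp7 at 31.9%, Igfbp6 at 21.7%, Igfbp5 at 20.2%, and Igfbp4 at 20.1%. In PASCs Igfbp6 made up 46.0% ± 0.907 and Igfbp7 32.7% ± 1.62. In EASCs Igfbp7 alone made up 57.0% ± 1.71 and Igfbp6 22.6% ± 1.35. Igfbp5 fell to 0.0451% of the sum in PASCs and 0.148% in EASCs, and Igfbp2 stayed under 1% in every sample. Shares add to the whole, so a share can move without a change of that gene.

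**Figure D3:**
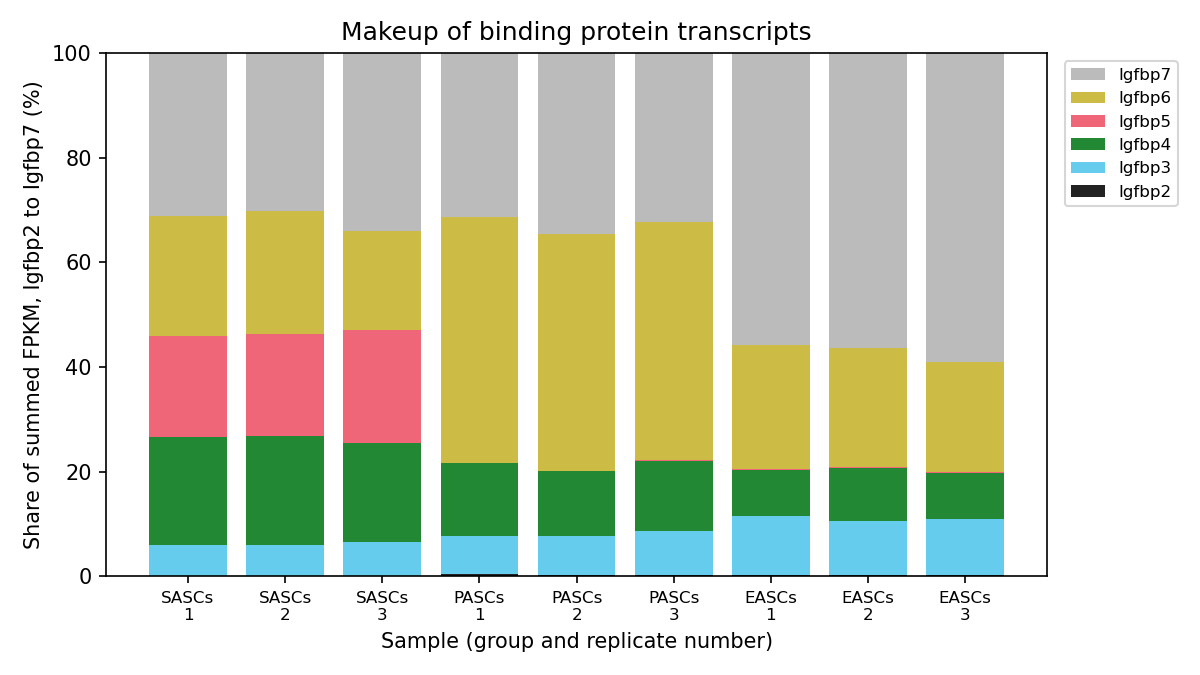
Share of Igfbp2 to Igfbp7 in their summed FPKM in each of the 9 samples, as stacked bars from 0 to 100%. Igfbp5 makes up 20.2% on average in SASCs and is too thin to see in the visceral samples, while Igfbp6 is the largest share in PASCs and Igfbp7 in EASCs.

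Genes that govern how much IGF is free formed a list of 11, of which 7 were tested. This list and those that follow were drawn up with earlier results of these data known. In EASCs 1 was an upregulated and 4 were downregulated DEGs, beside 13.5% and 14.2% of all genes, and in PASCs 1 and 3, beside 12.0% and 14.9%. Pappa encodes pappalysin, the protease that cleaves IGFBP4 and IGFBP5, and it fell from 199 ± 15.2 CPM in SASCs to 21.3 ± 0.501 in EASCs (log2 fold change -3.22, SE 0.0722, adjusted p = 5.37e-24) and 17.6 ± 1.80 in PASCs (-3.51, SE 0.0739, adjusted p = 1.90e-24). The pappalysin inhibitors Stc1 and Stc2 also fell. Stc1 changed by -4.06 in EASCs and -2.44 in PASCs (adjusted p = 3.76e-22 and 1.19e-18), and Stc2 by -1.07 and -0.31 (adjusted p = 9.65e-15 and 4.48e-05).

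Adam12, a metalloprotease known to cleave IGFBP3 and IGFBP5, was the upregulated member, at 238 ± 21.2 CPM in SASCs, 1165 ± 48.0 in EASCs, and 1067 ± 56.4 in PASCs (log2 fold change 2.29 and 2.16, adjusted p = 1.27e-21 and 4.81e-21). Lrp1, an endocytic receptor that binds IGFBP3, fell from 4014 ± 316 CPM to 1078 ± 112 in EASCs and 1072 ± 128 in PASCs (-1.90 and -1.91, adjusted p = 1.23e-17 and 1.16e-17). The protease gene Htra1 fell in EASCs by 0.36 (adjusted p = 1.85e-06) and had a value of -0.07 in PASCs (adjusted p = 0.226). Tmem219, a receptor of IGFBP3, had values of 0.09 and 0.21 (adjusted p = 0.446 and 0.0800). Igfbp1, Igfbpl1, and Igfals were below the filter, with at most 8 counts in any sample, and Pappa2 was not found by this symbol in the count table. Between the visceral groups, Stc1 was the 1 DEG of the list, lower in EASCs (-1.62, adjusted p = 2.97e-11), beside 7.39% of all genes (2.20% down).

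The list of the Igf2 locus and of proteins that bind Igf2 RNA held 6 genes, of which 4 were tested. In EASCs 2 were upregulated and 2 downregulated DEGs, and in PASCs 2 and 1, beside the same shares of all genes. Igf2bp1 had no SASC sample and H19 no EASC sample at the filter's minimum. Without Igf2bp1, and in EASCs also without H19, 1 upregulated (Igf2bp3) and 1 downregulated DEG (Igf2bp2) remained in each comparison. The insulin genes Ins1 and Ins2 had 0 counts in all samples. H19, the noncoding RNA beside Igf2, was counted 9 to 18 times in the SASC samples, 11 to 23 times in PASCs, and at most 2 times in EASCs. Pooled counts relative to library size were 18.0 times higher in SASCs than in EASCs (4.65 to 154) and 28.2 times higher in PASCs than in EASCs (7.45 to 238). Both EASC counts lay in replicate 1. Without that sample SASCs were at least 7.97-fold and PASCs at least 12.4-fold higher, with 3 counts over the other EASC samples as the floor, and without EASC replicate 2 or 3 the ratios were 11.7 and 12.3 for SASCs and 18.4 and 19.3 for PASCs. Igf2 itself was lowest in PASCs, so the order of the depots differed between these neighbours. Igf2bp1 had 14 counts over the SASC samples, 119 in EASCs, and 90 in PASCs, with ratios of 8.73 (5.00 to 16.4) and 6.52 (3.69 to 12.4) relative to library size. H19 missed the filter's minimum in all EASC samples and Igf2bp1 in all SASC samples, so their calls are no independent support and are given without p-values. Igf2bp3 rose (log2 fold change 1.66 and 1.61, adjusted p = 1.54e-08 and 3.02e-08), whereas the more abundant Igf2bp2 fell from 122 ± 8.63 CPM to 32.7 ± 1.43 in EASCs and 35.4 ± 1.38 in PASCs (-1.90 and -1.79, adjusted p = 1.02e-19 and 3.54e-19).

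Of 8 genes of the growth hormone axis, all tested, 5 were downregulated DEGs in EASCs, beside 14.2% of all genes, and 5 in PASCs, beside 14.9%. The list was drawn up with earlier results of these data known, so these counts are a description. None was an upregulated DEG, beside 13.5% and 12.0%, and none was a DEG between the visceral groups, beside 7.39%. Ghr, the growth hormone receptor, fell from 223 ± 7.44 CPM in SASCs to 10.8 ± 1.10 in EASCs (log2 fold change -4.38, SE 0.0818, adjusted p = 1.25e-25) and 15.6 ± 2.00 in PASCs (-3.85, SE 0.0783, adjusted p = 9.64e-25). Of the feedback inhibitors of cytokine receptors, 3 were DEGs. Socs1, named here after its values were seen, was not, with 0.06 and 0.23 (adjusted p = 0.914 and 0.654). Socs3 changed by -3.08 and -3.11 (adjusted p = 3.54e-24 and 4.23e-24), Socs2 by -2.19 and -1.44 (2.38e-10 and 1.55e-07), and Cish by -2.14 and -2.62 (3.52e-13 and 1.34e-14). The kinase Jak2, named here after its values were seen, changed by -1.13 and -1.22 (6.09e-15 and 1.26e-15). Of the STAT5 transcription factors of the pathway, also named after their values were seen, Stat5a fell by 0.64 and 0.58 (1.07e-05 and 4.09e-05), while Stat5b went the other way in EASCs, by 0.60 against SASCs (adjusted p = 1.89e-05) and 0.55 against PASCs (2.00e-04). The median of the list was -1.64 in EASCs and -1.33 in PASCs.

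Downstream of the receptors a few genes were DEGs. Of 33 genes of insulin and IGF receptor signaling, all tested, 2 were upregulated and 2 downregulated DEGs in EASCs, and 2 and 2 in PASCs, beside 27.8% and 26.9% of all genes that were DEGs. Pik3r1, a regulatory subunit of PI3 kinase, fell by 1.93 and 2.04 on the log2 scale (adjusted p = 8.21e-19 and 3.03e-19), and Tsc1, an inhibitor of mTOR, fell by 1.09 and 1.05 (4.03e-13 and 7.63e-13). Pik3cd, a catalytic subunit, rose by 2.23 and 2.00 (3.07e-18 and 4.47e-17), and Eif4ebp1, a translation inhibitor that mTOR inactivates, rose by 1.32 and 1.39 (1.79e-16 and 5.80e-17). At any fold change, 10 genes rose, 17 fell, and 6 did not pass in EASCs, and 9, 12, and 12 in PASCs, where 69.7% and 69.2% of all genes passed. Between the visceral groups none was a DEG, beside 7.39% of all genes. There, 4 rose, 2 fell, and 27 did not pass in the edgeR test, where 30.7% of all genes passed.

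**Figure D4:**
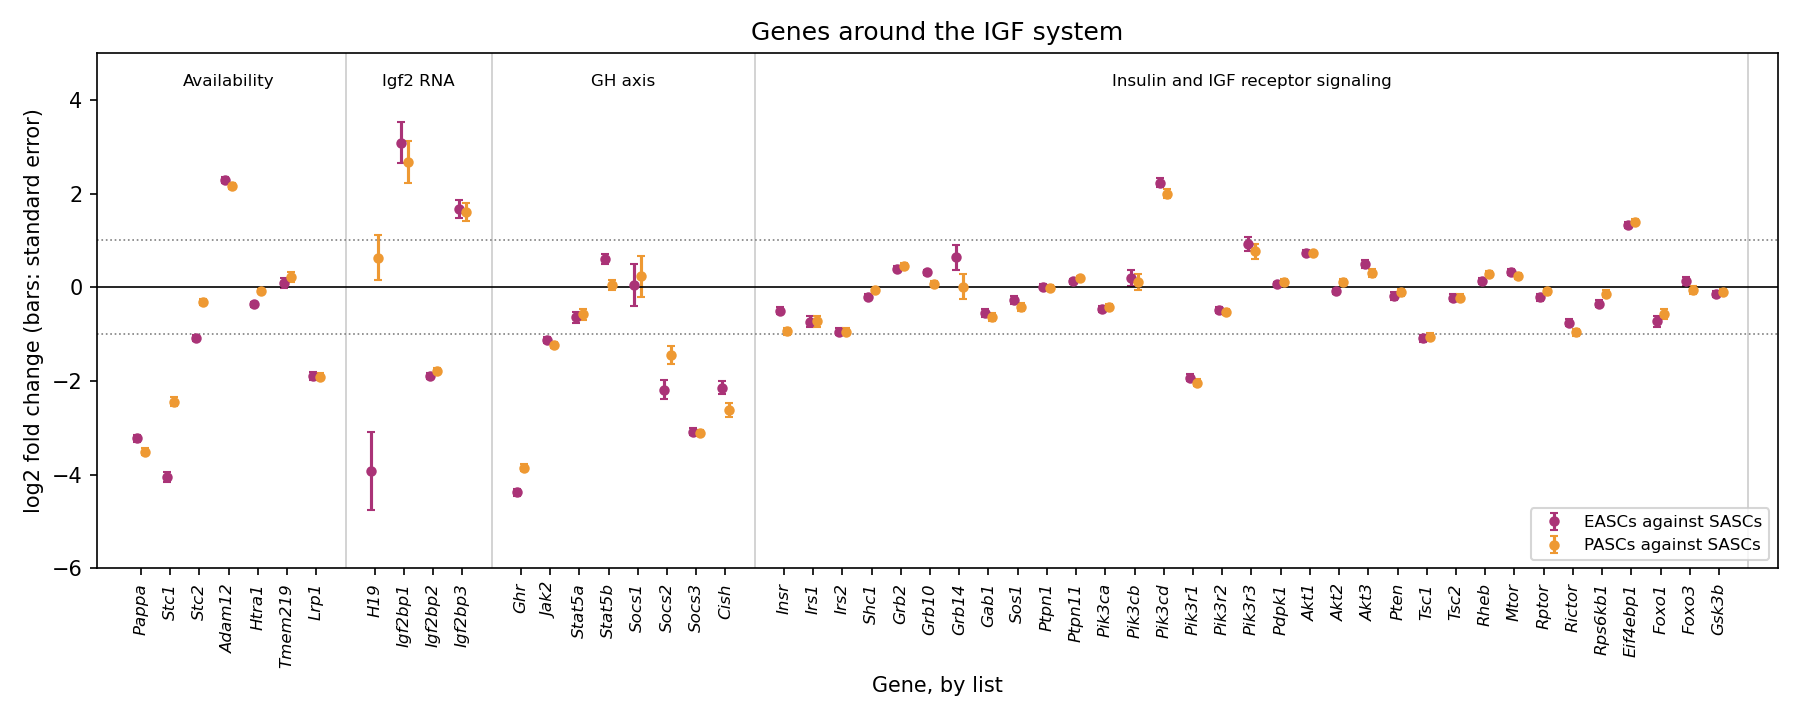
Log2 fold changes against SASCs of every tested gene of the lists of IGF availability, Igf2 RNA, growth hormone (GH) axis, and receptor signaling, with bars for the standard error and dotted lines at a fold change of 2. In both comparisons 5 of 8 genes of the growth hormone axis lie below the lower line, beside 14.2% and 14.9% of all genes that were downregulated DEGs. Of the 33 signaling genes 29 lie between the lines, where 27.8% and 26.9% of all genes were DEGs. H19 in EASCs and Igf2bp1 in both comparisons entered the test only through the group where they were higher.

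The genes whose pattern over the 9 samples was closest to that of Igfbp5 were ranked by the root mean square difference of log2 CPM after centring each gene, over all 14770 genes and without regard to function. They were Ptn (0.604), LOC100125362 (0.889), Cemip (0.893), Tmeff2 (0.897), and Sned1 (0.968). Ptn, which encodes the growth factor pleiotrophin, stood at 49.6 ± 4.02 CPM in SASCs, 0.442 in EASCs, and 0.0426 in PASCs, the last below the level of 3 counts. Cemip, a hyaluronan-binding protein, stood at 1495 ± 40.4, 26.3, and 9.45. These genes were picked for their likeness to Igfbp5, so their levels are a description. The genes closest to Igf1 were Egr1 (0.141), Lnx1 (0.175), Htr2b (0.180), Gas6 (0.190), and Socs3 (0.199). Egr1, an immediate early transcription factor, stood at 387 ± 30.5 CPM in SASCs, 33.8 ± 1.58 in PASCs, and 31.3 ± 1.93 in EASCs. Among the 10 members the closest pair was Igfbp3 and Igfbp7 (0.156). The 9 samples fall into 3 groups and all genes share the same libraries, so these measures do not rest on 9 independent points.

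Other properties of the samples moved with the depots, and their part in the differences of the IGF genes was not tested. Total counts ranged from 17591916 to 30299032, and the share of ribosomal RNA was 10.4% to 15.5% for SASCs, 22.4% to 32.9% for PASCs, and 15.9% to 40.3% for EASCs. All 7 markers of mesenchymal stem cells were tested, and their summed level was 4132 to 4259 CPM for SASCs, 3782 to 3958 for PASCs, and 4956 to 5025 for EASCs. The sum held opposite changes, since Pdgfra was a downregulated DEG in EASCs and PASCs (1542 CPM in SASCs, 235 and 278 in these groups), while Eng and Itgb1 were upregulated DEGs in EASCs (59.9 to 204 and 1045 to 2950 CPM). The counts of DEGs that follow stand beside 13.5% up and 14.2% down among all genes in EASCs and 12.0% up and 14.9% down in PASCs. All 6 tested of 7 mesothelial markers were upregulated DEGs in both visceral groups (summed 20.3 to 21.8 CPM for SASCs, 222 to 224 for PASCs, 188 to 202 for EASCs), and Krt19 had 1 to 8 counts in SASCs, 0 in PASCs, and at most 2 in EASCs. Of these 6, Upk3b had no SASC sample at the filter's minimum and so passed only through the visceral groups. All 5 smooth muscle markers were upregulated (159 to 169.9, 2827 to 3125, and 6314 to 6681 CPM in the same order), as were 6 of 6 proliferation markers (59.8 to 63.6, 536 to 548, and 322 to 330.1). Of 6 leukocyte markers 5 were found by symbol, and of these 2 in PASCs and 4 in EASCs were upregulated (46.4 to 51.0, 114 to 118, and 164 to 173). All 4 tested adipocyte markers were downregulated (87.0 to 95.8, 19.1 to 20.2, and 9.24 to 10.1), of which Cidec had no EASC sample at the filter's minimum. Of 5 endothelial markers, 1 was upregulated and 4 downregulated in PASCs, and 1 and 1 in EASCs (41.6 to 44.1, 11.5 to 14.3, and 29.3 to 32.1). In bulk RNA, fewer cells of a type and less RNA per cell cannot be told apart.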

How the data were processed

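RNA of 9 samples of cultured cells was sequenced as paired-end reads. According to the methods, the authors trimmed reads with cutadapt and FastX-Toolkit and aligned them with TopHat2 to the rat genome rn6. The submitters' processing notes name the same aligner but the genome rn5. The authors deposited raw read counts for 35362 genes without normalization. The counting tool and use of strand are not given in the sources used here. Positions of genes were copied from the deposited table, and promoter sequences are RefSeq's (GRCr8; all 10 genes matched by symbol).

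Counts were analysed in R 4.3.3 with edgeR 4.0.16 (TMM, filterByExpr, quasi-likelihood test, 1 model of all 9 samples, Benjamini-Hochberg adjustment over 14770 genes). The authors' DEGseq was not installed, and their thresholds for DEGs were used (fold change above 2, adjusted p under 0.05). "Rose" and "fell" mean an adjusted p under 0.05. CPM and FPKM were computed here from the counts. The fit was tested on simulated counts. Counting intervals (95%) of pooled ratios are exact and, like the floor of 3 counts, cover counting error only. Samples of 1 group differed by 4.58 to 18.0 in chi-square per degree of freedom, more than counting noise, which does not show that they were separate cultures.

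The genes, lists, and tests were chosen with earlier results of these data known. Named were all 10 genes, every gene of the availability and Igf2 lists, up to 4 DEGs of each other list and comparison with SASCs, and the 5 genes nearest in pattern to Igfbp5 and to Igf1. Alternatives were DESeq2 1.42.0, its size factors, total counts, removal of rRNA genes, no filter, the samples of 2 groups only, a replicate block, no fold threshold, and leaving out each sample in turn. The result of 1 further marker list is not reported here.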

Additional observations from a re-analysis of the deposited data

How the results depend on the processing

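Without the fold threshold, 8, 10, and 7 of the 10 genes passed in EASCs against SASCs, PASCs against SASCs, and EASCs against PASCs, in place of 4, 5, and 3 DEGs. Of all genes tested, 69.7%, 69.2%, and 30.7% passed without it, in place of 27.8%, 26.9%, and 7.39%. Leaving out each sample in turn gave 4 to 4, 4 to 5, and 2 to 3 DEGs. When a fit held just the pair of groups compared, Igf2 was not tested in the comparisons with PASCs, which left 4 and 2 DEGs. Igfbp7 in EASCs against PASCs fell below the fold threshold with total counts (0.97) and without EASCs replicate 3 (0.99). Among values that passed no test, the sign turned for Igf1r in EASCs against SASCs without EASCs replicate 2 (0.030) and without SASCs replicate 3 (0.016), with values between -0.044 and 0.030 over all samples left out. It also turned for Igf1 in EASCs against PASCs without EASCs replicate 2 (range -0.14 to 0.0023), and for Igfbp2 in EASCs against PASCs without PASCs replicate 1 (range -0.35 to 0.047). With total counts Igf1r passed in EASCs against SASCs (-0.42, adjusted p = 0.0174, edgeR), near the median of all genes (-0.39), and the calls of Igf1r and Igfbp4 in EASCs against PASCs were lost (0.17 and -0.35). Igf2r in EASCs against PASCs passed under 5 alternatives, with adjusted p between 0.00603 and 0.0416. For single genes, 455 values kept their direction and their side of the threshold, 13 no longer passed, 6 newly passed, and 4 turned. The cause was not tested for any of these.

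Same-numbered samples deviated from their group means with correlations between -0.0348 and 0.0380. Whether they share a rat or a culture is not stated, and these correlations cannot settle it. With the replicate number as a block there were 4, 5, and 3 DEGs, and Igf2r in EASCs against PASCs passed (0.16, adjusted p = 0.0120).

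Depth limits Igf2, Igfbp2, and the visceral values of Igfbp5, whose differences rest on a few counts per sample.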
